A study of Mus musculus with 6 samples.

Results

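The voltage-gated calcium channel subunits, the intracellular calcium release channels, the calcium pumps and sodium-calcium exchangers, and the calmodulin-dependent kinases were examined in mouse retinas after optic nerve crush (ONC). Members were chosen by gene symbol, as the genes of the families Cacna, Cacnb, Cacng, Ryr, Itpr, Atp2a, Atp2b, Atp2c, Slc8a and Camk. Of the 35485 genes listed for each sample, 54 carried such a symbol, and the 48 with a mean RPKM (exon reads per length of exon, scaled to all reads that the sample had on genes) above 0.3 over the 6 samples were described. All 48 lay above 0.3 in both group means, so no member entered through 1 group alone. The 3 members nearest above the limit were Atp2a3 (0.441), Cacng8 (0.623) and Cacna1e (0.648). The 6 below it were Itpr3 (0.298), Atp2a1 (0.172), Ryr1 (0.122), Cacng1 (0.0275), Cacng6 (0.0185) and Atp2c2 (0.0148).

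The retinas came from wild type C57BL/6 mice of 12 weeks and were collected 2 days after surgery. In the ONC group the exposed nerve was crushed with fine forceps for 10 seconds at a point 2 mm behind the globe, and in the sham group the nerve was exposed and left uncrushed. Each group had 3 samples, and each sample was RNA pooled from 6 retinas of 6 mice, so the spread between samples is a spread between pools. The crush damages the long output fibres of retinal ganglion cells (RGCs), a small minority of retinal cells, while the libraries hold the RNA of the whole retina.

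Calcium enters neurons through voltage-gated channels, each built on a pore-forming alpha1 subunit with beta and alpha2delta subunits that set its gating and its delivery to the membrane. It is released from the endoplasmic reticulum by IP3 receptors and ryanodine receptors, pumped back by the SERCA pumps, and expelled across the plasma membrane by the PMCA pumps and the NCX exchangers. Calcium bound to calmodulin activates the CaM kinases. In the retina, photoreceptors and bipolar cells release transmitter continuously through L-type channels, and RGCs use several channel types to shape their firing.

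The sequences just before the start sites of the members on which the main results turned are shown, the 3 NCX exchangers because every one of them fell and Camk1 and Cacng5 because their changes were the largest in each direction. Each is the 250 bases before the RefSeq start site (GRCm38.p6), read 5′ to 3′ on the strand of the gene, at chr17:81738388-81738637 (minus) for Slc8a1, chr7:16129576-16129825 (plus) for Slc8a2, chr12:81333181-81333430 (minus) for Slc8a3, chr11:107915056-107915305 (minus) for Cacng5 and chr6:113343923-113344172 (minus) for Camk1. Capitals mark matches to the motifs searched on both strands, which were TGATGNAA (C/EBP-ATF), TGANTCA (AP-1), TGACGTCA (CRE) and GGGCGG (GC box).
Slc8a1: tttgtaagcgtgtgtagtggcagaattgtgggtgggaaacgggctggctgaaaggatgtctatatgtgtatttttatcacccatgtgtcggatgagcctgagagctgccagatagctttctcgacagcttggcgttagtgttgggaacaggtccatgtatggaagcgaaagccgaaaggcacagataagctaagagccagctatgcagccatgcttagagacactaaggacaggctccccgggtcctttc
Slc8a2: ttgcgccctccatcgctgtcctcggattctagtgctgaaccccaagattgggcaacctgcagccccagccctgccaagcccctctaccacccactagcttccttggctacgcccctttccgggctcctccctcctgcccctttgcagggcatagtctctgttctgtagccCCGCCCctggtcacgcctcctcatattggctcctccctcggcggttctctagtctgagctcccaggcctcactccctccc
Slc8a3: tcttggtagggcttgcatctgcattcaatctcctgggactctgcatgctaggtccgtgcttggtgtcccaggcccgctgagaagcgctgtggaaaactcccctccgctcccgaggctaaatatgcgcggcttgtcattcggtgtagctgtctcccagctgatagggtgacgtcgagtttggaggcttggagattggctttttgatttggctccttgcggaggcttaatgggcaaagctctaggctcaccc
Cacng5: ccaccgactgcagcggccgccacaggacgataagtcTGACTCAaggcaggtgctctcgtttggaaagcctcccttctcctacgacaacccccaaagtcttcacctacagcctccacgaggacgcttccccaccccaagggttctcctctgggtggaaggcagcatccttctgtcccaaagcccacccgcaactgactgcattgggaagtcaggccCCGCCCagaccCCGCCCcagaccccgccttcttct
Camk1: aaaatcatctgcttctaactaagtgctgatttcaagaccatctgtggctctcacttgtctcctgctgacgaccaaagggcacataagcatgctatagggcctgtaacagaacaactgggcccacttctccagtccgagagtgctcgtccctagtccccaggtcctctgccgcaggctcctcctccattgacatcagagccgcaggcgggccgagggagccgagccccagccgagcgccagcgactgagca

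The windows of Slc8a1, Slc8a3 and Camk1 held no match, that of Slc8a2 held 1 GC box, and that of Cacng5 held 1 AP-1 match and 2 GC boxes. Among all 32817 promoter windows of this length, 6.75% held the AP-1 letters, 32.7% a GC box, 3.45% the C/EBP-ATF letters and 1.55% the CRE letters. Of the 48 members, 35 had at least 1 window, and the AP-1 letters were found in 1 (Cacng5), the C/EBP-ATF letters in 1 (Cacna1c), the CRE letters in 0 and a GC box in 24 of them. A member was counted if any of its windows matched, and some had more than 1 (Cacng5 had 2). The percentages above are of single windows, so the 2 kinds of count are not on a like basis. The start site of Slc8a2 lay 474 bases from the start of the gene in the deposited tables, and those of the other 4 within 10 bases.

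The sham samples had 17343945 to 18349331 reads on exons and the ONC samples 20019818 to 20358008. The share of gene reads that fell on exons was 75.9%, 76.6% and 70.9% in the sham samples and 79.9%, 80.4% and 78.5% in the ONC samples. ONC replicate 1 differed more from the other ONC samples (chi-square per degree of freedom 13.7 and 10.8) than those differed from each other (4.54), and for many members it lay between them and the sham group. Of 10 RGC markers, 8 (Rbpms, Sncg, Nefl, Nefm, Nefh, Pou4f1, Pou4f2 and Thy1) fell and 1 (Slc17a6) rose by the test described next, and their summed RPKM was 435 to 453 in the sham samples and 321 to 339 in the ONC samples. With bulk RNA, fewer RGCs and less RNA per RGC cannot be told apart.

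Exon reads were compared with edgeR's quasi-likelihood test over 13670 genes, from which all adjusted p-values below are taken, and a gene is called changed at a false discovery rate (FDR) under 0.1. By this test 14 of the 48 members fell and 2 rose. The 16 called members are 33.3% of the members, while 6.09% of all genes tested were called. The 14 falls are 29.2% of the members against 3.72% of all genes called lower, and the background of genes called higher was 2.38%. The fold change was negative in 38 of 48 members, against 47.7% of all genes, and the median log2 fold change of the members was -0.15 (0.01 over all genes). At the additional limit of a fold change above 1.5, which 1.66% of all genes passed (0.827% higher and 0.834% lower), Camk1 rose and Cacng5 fell. The fold of Cacng5 lay at that limit (1.501), and it was under it without ONC replicate 2, ONC replicate 3, sham replicate 2 or sham replicate 3. The members together took 0.501%, 0.513% and 0.505% of all exon reads in the sham samples and 0.484%, 0.465% and 0.484% in the ONC samples, and these ranges did not overlap. Such shares of reads give long genes more weight. The summed RPKM of the members counts each gene per length, and it is also scaled to all gene reads, introns included. That scaling moved the median log2 fold change of all genes from 0.01 to 0.13. The sum was 730 ± 29.9 in sham and 754 ± 10.6 in ONC (SD, n = 3), with overlap. It differs from the shares of reads in both length weight and scaling, so they are not on a like basis. The size of the count depended on single samples, being 6 without sham replicate 2, 8 without ONC replicate 2 or 3, 9 without sham replicate 3 and 23 without ONC replicate 1, and Slc8a1, Camk1, Cacng5, Slc8a3, Camk4 and Camk2g were called with any 1 sample left out.

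**Figure D1:**
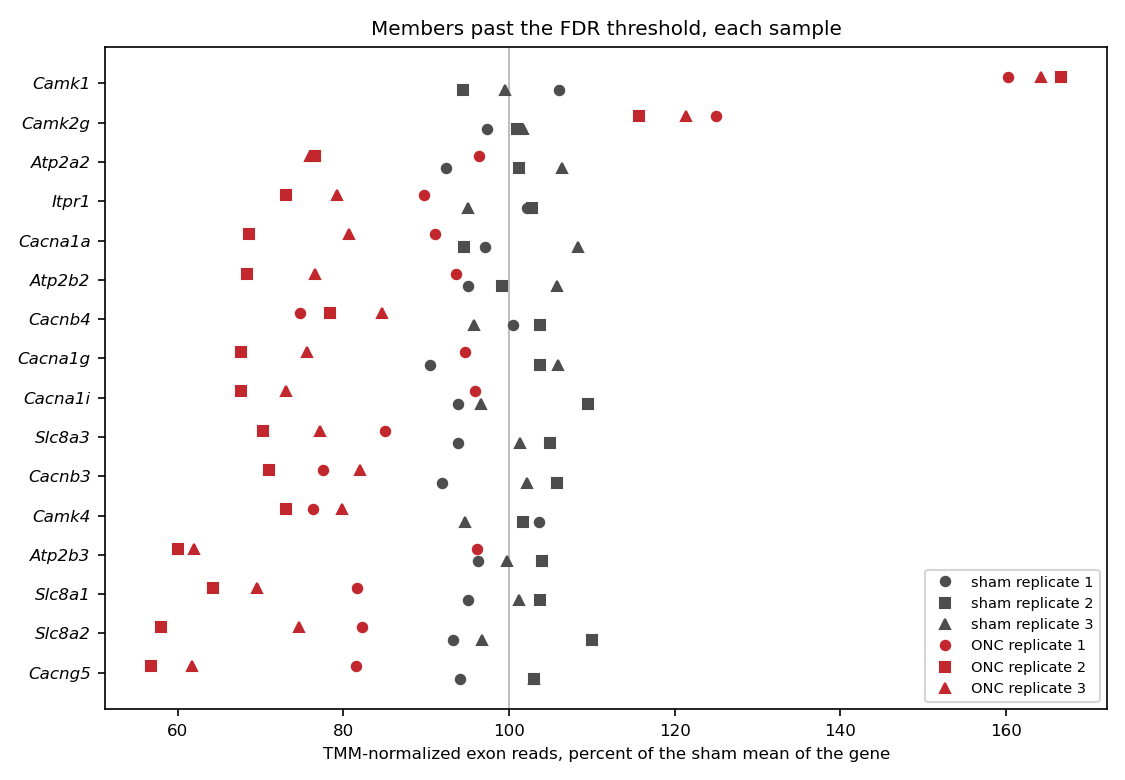
Normalised exon reads of the 16 called members in each of the 6 samples, as percent of the sham mean of the gene (horizontal axis), with grey symbols for sham, red symbols for ONC and a shape for each replicate. The ONC symbols of 13 members lay wholly outside the sham range, and for most falling members ONC replicate 1 (red circle) was the ONC sample nearest to sham.

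Groups did not overlap, with all 3 ONC samples on one side of all 3 sham samples, for 19 of 48 members, 16 of them with ONC below and 3 with ONC above. Over all genes tested this held for 21.8%, with 10.8% below and 11.0% above. Of the 14 members that fell, 11 were without overlap, and Atp2a2, Cacna1g and Cacna1i overlapped because ONC replicate 1 was within the sham range.

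**Figure D2:**
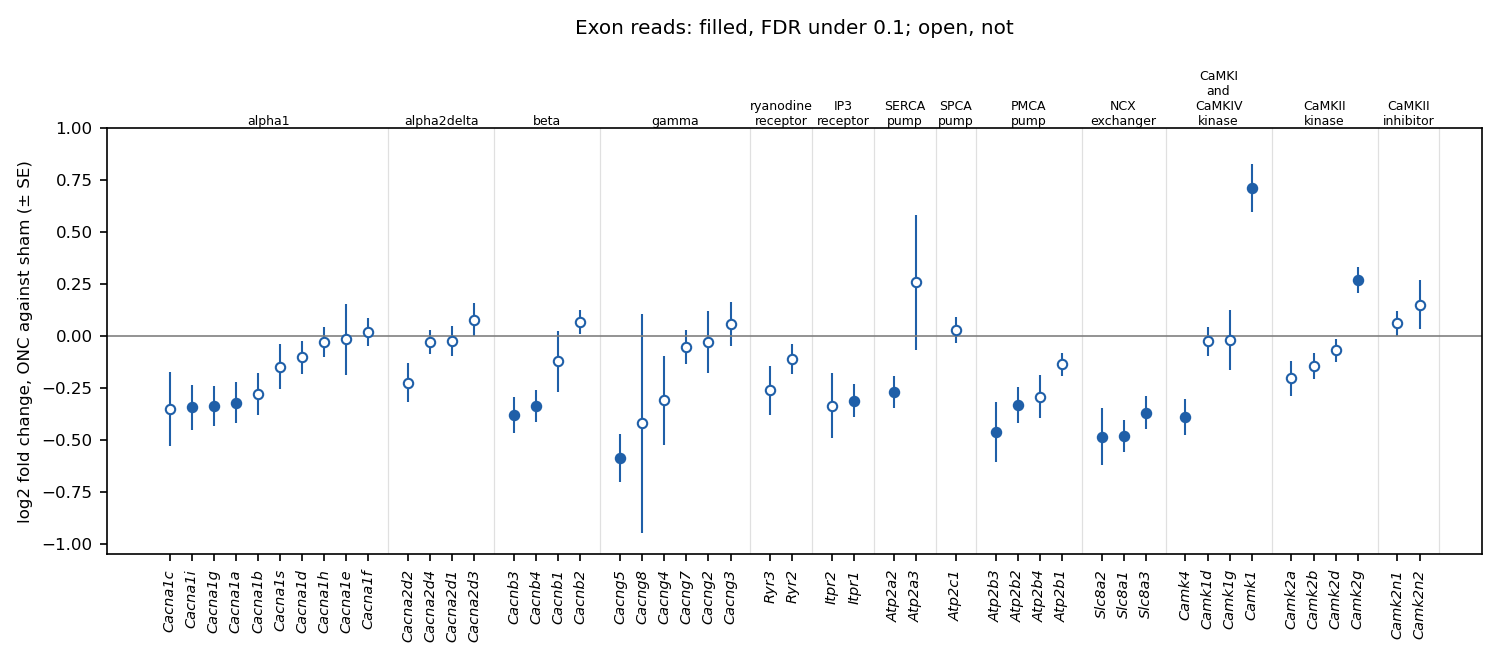
Log2 fold change of exon reads, ONC against sham, for each of the 48 members by family, with the standard error from edgeR as bars. Filled points passed an FDR of 0.1. All 7 plasma membrane pumps and exchangers lay below 0, the alpha2delta subunits lay between -0.22 and 0.08, and the points of Camk1 and Camk2g were the filled ones above 0.

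The genes for proteins that expel calcium across the plasma membrane had fold changes of one sign. All 7 genes had a negative fold change and 5 of 7 were called lower, with a median log2 fold change of -0.37, while 47.7% of all genes were negative and 3.72% called lower. With the correction for exon length the same 5 were called. With the scaling of RPKM 2 were called (Slc8a1 and Slc8a3) at a median of -0.25, and Slc8a2, Atp2b2 and Atp2b3 each lost the call in at least 4 of the 6 fits that left out 1 sample. The NCX exchangers, which trade intracellular calcium for extracellular sodium, all fell. Slc8a3 was the most abundant of the 3 per length, with a mean RPKM of 12.8 ± 0.892 in sham and 10.8 ± 0.763 in ONC (SD, n = 3, as for every RPKM below). On the scale used for the test, exon reads scaled to a common library size by TMM normalisation (CPM), Slc8a3 had 82.7, 92.4 and 89.3 CPM in the sham samples and 74.98, 61.9 and 67.98 CPM in the ONC samples. Its log2 fold change was -0.37 ± 0.08 (± SE from edgeR, here and below), with an adjusted p of 0.00816, and the groups did not overlap.

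Slc8a1, the exchanger first known from heart and widely expressed in neurons, gave the lowest adjusted p of all members. It had 137, 149.6 and 146 CPM in sham and 118, 92.6 and 100.3 CPM in ONC. All 3 ONC samples were below all sham samples, a fall of 28.2% at a log2 fold change of -0.48 ± 0.08 and an adjusted p of 0.000686. Slc8a2, the brain exchanger, had 20.5, 24.2 and 21.3 CPM in sham and 18.1, 12.7 and 16.4 CPM in ONC, with a log2 fold change of -0.48 ± 0.14 and an adjusted p of 0.056. Its groups were also apart, with ONC replicate 1 the nearest to sham, and the call was lost when ONC replicate 2, ONC replicate 3, sham replicate 2 or sham replicate 3 was left out. On reads across exon-exon junctions alone, edgeR called none of the exchangers. The log2 fold change there was -0.44 for Slc8a1 (adjusted p = 0.439), -0.16 for Slc8a3 (0.785) and -0.50 for Slc8a2 (0.332). With limma on log2 RPKM none of them was called either, but that fit changes both the test and the scaling. The order of the 3 exchangers was the same in both groups. Slc8a3 made up 57.3% ± 0.40 (SD, n = 3) of their summed RPKM in sham and 59.3% ± 1.10 in ONC, and Slc8a1 25.6% ± 0.38 and 24.4% ± 0.60, both without overlap. The share of Slc8a2 was 17.1% ± 0.70 and 16.3% ± 1.19, with overlap. With the correction for exon length described below, the log2 fold change was -0.28 for Slc8a1 and -0.33 for Slc8a3. In that fit Slc8a1 did not fall more than Slc8a3, unlike in these shares.

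Among the PMCA pumps, which use ATP to expel calcium, Atp2b1 was the most abundant per length with an RPKM of 47.2 ± 2.28 in sham and 46.7 ± 0.772 in ONC. It had 449.8, 459.95 and 458 CPM in sham and 433, 402 and 409.9 CPM in ONC, so the ONC samples were lower throughout, but the log2 fold change of -0.14 ± 0.05 did not pass the test (adjusted p = 0.199). Atp2b2, a fast-acting pump of neurons and hair cells, fell. Its values were 125, 130.2 and 139 CPM in sham and 123, 89.8 and 100.5 CPM in ONC. ONC replicate 1 was just below the lowest sham sample, and the log2 fold change was -0.33 ± 0.09 with an adjusted p of 0.0388. Atp2b3, another pump of neurons, had 28.98, 31.3 and 30.03 CPM in sham and 28.9, 18.1 and 18.7 CPM in ONC. Here ONC replicate 1 was level with the lowest sham sample while the other ONC samples were far below (log2 fold change -0.46 ± 0.14, adjusted p = 0.0869). Of the fits without 1 sample, the one without ONC replicate 1 alone kept this call. Atp2b4 overlapped between groups, with a log2 fold change of -0.29 ± 0.10 and an adjusted p of 0.146, and in sham its RPKM overlapped with that of Atp2b3, while Atp2b1 and Atp2b2 stood apart from their neighbours in level.

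Of the endoplasmic reticulum pumps, Atp2a2 (SERCA2) made up 99.4% of the summed SERCA RPKM in sham and 99.1% in ONC. It had 406, 444 and 467 CPM in sham and 423, 336 and 334 CPM in ONC. ONC replicate 1 lay within the sham range and the other ONC samples below it, for a log2 fold change of -0.27 ± 0.08 and an adjusted p of 0.0628. Atp2a3 was near the level limit, with 37 to 49 exon reads in sham and 45 to 72 in ONC (adjusted p = 0.742). Atp2c1, the calcium and manganese pump of the Golgi, had 208, 226 and 221 CPM in sham and 209, 236 and 224 CPM in ONC, and its log2 fold change of 0.03 ± 0.06 was smaller than its standard error.

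The release channels of the endoplasmic reticulum are the IP3 and ryanodine receptors. Itpr1, the main neuronal IP3 receptor, took 84.8% of the summed IP3 receptor RPKM in sham and 84.9% in ONC. It fell, with 84.2, 84.7 and 78.3 CPM in sham and 73.97, 60.2 and 65.3 CPM in ONC, without overlap (log2 fold change -0.31 ± 0.08, adjusted p = 0.0318). Itpr2 had 13.5, 10.7 and 13.3 CPM in sham and 9.04, 9.33 and 11.4 CPM in ONC. These overlapped through sham replicate 2, and the log2 fold change of -0.33 ± 0.16, as large as that of Itpr1, did not pass the test (adjusted p = 0.293). Neither ryanodine receptor passed. Ryr2, the form best known from heart and also present in neurons, had 100.3, 108 and 106 CPM in sham and 107, 93.98 and 90.97 CPM in ONC (adjusted p = 0.482). Ryr3 had 39.1, 46.8 and 34.1 CPM in sham and 34.2, 28.5 and 37.6 CPM in ONC, with a log2 fold change of -0.26 ± 0.12 and an adjusted p of 0.273. For the 2 ryanodine receptors 1 unadjusted p was under 0.05, and DESeq2 called neither.

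Of the 24 voltage-gated channel subunits, 6 fell, 0 rose and 18 did not pass, and 20 had a negative fold change (3.72% of all genes were called lower and 47.7% had a negative fold change). These 24 include the 6 gamma subunits treated last. With the correction for exon length described below 2 of the 24 were called lower (Cacnb3 and Cacng5) and 15 were negative, and with the scaling of RPKM 1 (Cacng5) and 13. By unadjusted p, 8 of the 24 were under 0.05. The pore-forming subunits were led by Cacna1f, the L-type channel of photoreceptor synapses, with an RPKM of 43.4 ± 2.32 in sham and 47.9 ± 5.84 in ONC, about 50.5% and 54.2% of the summed alpha1 RPKM. It had 339, 368 and 365 CPM in sham and 320.1, 385 and 381 CPM in ONC. These overlapped, and the log2 fold change of 0.02 ± 0.07 was the only positive one among the 10 alpha1 genes. In sham, Cacna1h and then Cacna1g (both T-type, low-voltage-activated) followed at separate levels, while the neighbours in the sequence Cacna1a, Cacna1i, Cacna1d, Cacna1b and Cacna1s did not differ beyond their spread. Cacna1c and Cacna1e were lowest, with RPKM of 1.01 ± 0.115 and 0.625 ± 0.0373.

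The 3 alpha1 genes that fell were Cacna1a, the P/Q-type channel of presynaptic terminals, and the T-type genes Cacna1g and Cacna1i. Cacna1a had 53.1, 51.7 and 59.2 CPM in sham and 49.8, 37.5 and 44.1 CPM in ONC, without overlap (log2 fold change -0.32 ± 0.10, adjusted p = 0.0787). Cacna1g had 83.7, 95.9 and 97.9 CPM in sham and 87.6, 62.5 and 69.9 CPM in ONC (log2 fold change -0.34 ± 0.10, adjusted p = 0.0637). Cacna1i had 58.5, 68.2 and 60.2 CPM in sham and 59.8, 42.2 and 45.6 CPM in ONC (log2 fold change -0.34 ± 0.11, adjusted p = 0.0839). For both T-type genes ONC replicate 1 lay within the sham range and the other ONC samples below it. None of these 3 calls held without ONC replicate 2 or 3, and none held after the correction for exon length described below. The largest alpha1 fold change was that of Cacna1c, an L-type gene, at -0.35 ± 0.18, with 11.00, 13.6 and 12.5 CPM in sham and 12.5, 7.52 and 9.14 CPM in ONC, which overlapped and did not pass (adjusted p = 0.329). Cacna1b, the N-type gene, was lower in all ONC samples and did not pass (log2 fold change -0.28 ± 0.10, adjusted p = 0.161). The third T-type gene, Cacna1h, had a log2 fold change of -0.03 ± 0.07.

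No alpha2delta subunit was called by edgeR, with 1 of 4 under an unadjusted p of 0.05, and DESeq2 called none. Cacna2d4, the subunit of photoreceptor channels, was the member of highest level among the 48, with an RPKM of 66.7 ± 2.26 in sham and 71.2 ± 3.61 in ONC. It had 512, 526 and 538 CPM in sham and 558, 483 and 506 CPM in ONC, with a log2 fold change of -0.03 ± 0.06. Cacna2d2 had the largest difference, with 79.2, 80.8 and 93.1 CPM in sham and 85.3, 65.4 and 66.1 CPM in ONC, which overlapped (log2 fold change -0.22 ± 0.09, adjusted p = 0.23). Cacna2d3 and Cacna2d1 had log2 fold changes of 0.08 ± 0.08 and -0.02 ± 0.07.

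The beta subunits, which sit on the inner face of the channel, moved unequally. Cacnb3, common in brain channels, fell, with 49.6, 57.1 and 55.1 CPM in sham and 41.8, 38.3 and 44.2 CPM in ONC. The groups were apart, at a log2 fold change of -0.38 ± 0.09 and an adjusted p of 0.0149, and the call was lost without sham replicate 2. Cacnb4 had 64.03, 66.1 and 61.01 CPM in sham and 47.7, 49.9 and 53.9 CPM in ONC (log2 fold change -0.33 ± 0.08, adjusted p = 0.0168), but only 14.5% of its exon reads were unique, so its value is uncertain and its call was lost on unique reads. Cacnb2, the beta subunit of photoreceptor synapses and the most abundant of the 4 per length, had 204, 200.3 and 204 CPM in sham and 211, 216 and 211 CPM in ONC. All 3 ONC samples were above sham by a small margin that did not pass the test (log2 fold change 0.07 ± 0.06, adjusted p = 0.58). As a share of the summed beta RPKM, which does not depend on the scaling of a sample, Cacnb2 went from 62.1% ± 1.31 in sham to 68.3% ± 1.40 in ONC and Cacnb3 from 22.0% ± 1.38 to 17.7% ± 1.18, without overlap in either (SD, n = 3, exact permutation p = 0.1, the smallest that 3 against 3 allows). Cacnb1 had a log2 fold change of -0.12 ± 0.15.

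Of the gamma subunits, most of which accompany AMPA receptors in neurons rather than calcium channels, only Cacng5 was called. It had 41.98, 45.97 and 45.99 CPM in sham and 36.4, 25.3 and 27.6 CPM in ONC. Every ONC sample was below every sham sample, a fall of 33.4% (log2 fold change -0.59 ± 0.12, adjusted p = 0.00442), and its share of the summed gamma RPKM went from 10.3% ± 1.09 to 7.31% ± 0.69. Cacng7, the most abundant, had 53.3, 48.3 and 55.1 CPM in sham and 53.5, 47.99 and 49.6 CPM in ONC and a log2 fold change of -0.05 ± 0.08. Cacng4 had 18.3, 9.84 and 12.7 CPM in sham and 14.4, 7.96 and 10.6 CPM in ONC (adjusted p = 0.5). Cacng3 and Cacng2 had log2 fold changes of 0.06 ± 0.10 and -0.03 ± 0.15, and Cacng8 was near the level limit, with 17 to 30 exon reads in sham and 9 to 35 in ONC.

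The CaM kinases held the only 2 members that rose. Camk1, the CaMKI alpha kinase that is switched on by the upstream kinases Camkk1 and Camkk2, had 15.8, 14.1 and 14.8 CPM in sham and 23.9, 24.9 and 24.5 CPM in ONC. The ONC samples were within 1 CPM of each other and all far above sham, a fold change of 1.64 (log2 0.71 ± 0.12, adjusted p = 0.000746). On the per-length scale its RPKM was 7.67 ± 0.625 in sham and 13.7 ± 0.615 in ONC. It was called under each of 20 alternative settings. Its span overlaps that of Ogg1, whose exons held 587 reads over the 6 samples, and all exon reads of Camk1 were unique.

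Camk2g, the gamma form of CaMKII, had 106, 109.7 and 110.5 CPM in sham and 136, 126 and 132 CPM in ONC. It rose in all ONC samples, at a log2 fold change of 0.27 ± 0.06 and an adjusted p of 0.0146. The 3 other CaMKII genes had negative fold changes that did not pass. Camk2d, the most abundant per length at an RPKM of 49.4 ± 3.17 in sham, had 307, 293 and 296 CPM in sham and 281, 275 and 299 CPM in ONC. Camk2b and Camk2a, the forms best known from brain synapses, had log2 fold changes of -0.14 ± 0.06 and -0.20 ± 0.08, each with all ONC samples below sham and adjusted p-values of 0.234 and 0.208. The shares of the 4 genes in the summed CaMKII RPKM add up to 100%, so they are 1 result and not 4, and a rise in the share of Camk2g lowers those of the others. Camk2g went from 20.5% ± 0.51 of the summed CaMKII RPKM in sham to 25.1% ± 0.81 in ONC, Camk2b from 25.8% ± 0.54 to 23.7% ± 0.28, Camk2d from 46.9% ± 1.05 to 45.3% ± 0.68 and Camk2a from 6.79% ± 0.15 to 5.97% ± 0.18 (SD, n = 3, exact permutation p = 0.1 for Camk2g, the smallest possible). The RPKM of Camk2d was 51.3 ± 2.23 in ONC. Its log2 fold change was -0.07 ± 0.06 in the test and 0.05 with the scaling of RPKM.

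**Figure D3:**
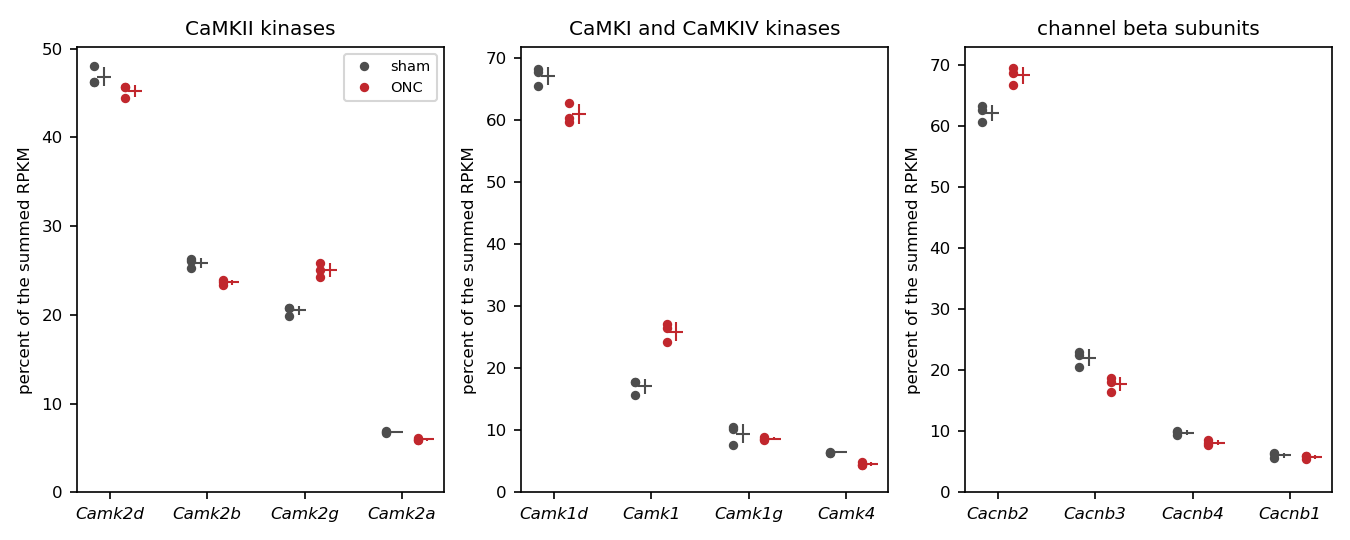
Share of each gene in the summed RPKM of its family, in percent, for the CaMKII kinases, the CaMKI and CaMKIV kinases and the beta subunits. Points are the 3 samples of a group (grey sham, red ONC), and the bars beside them the mean and SD. Camk2g, Camk1 and Cacnb2 took larger shares in every ONC sample than in any sham sample. Those of Camk2d, Camk2b, Camk2a, Camk1d, Camk4, Cacnb3 and Cacnb4 were smaller. Shares within a family are tied, so a larger share of a gene lowers those of the others. Camk1d itself had a log2 fold change of -0.03 ± 0.07.

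Camk4, the nuclear kinase that phosphorylates CREB, fell, with 50.2, 49.3 and 45.9 CPM in sham and 37.01, 35.4 and 38.7 CPM in ONC. The groups were apart by more than the spread within either (log2 fold change -0.39 ± 0.09, adjusted p = 0.0107). Camk1d, the most abundant of this branch with an RPKM of 30.2 ± 3.25 in sham, had 301, 300.1 and 271 CPM in sham and 261, 282 and 315 CPM in ONC and a log2 fold change of -0.03 ± 0.07, and Camk1g had one of -0.02 ± 0.14. Within this branch Camk1 made up 17.1% ± 1.15 of the summed RPKM in sham and 25.9% ± 1.49 in ONC, and Camk4 6.44% ± 0.09 and 4.57% ± 0.27, both without overlap. The 2 inhibitors of CaMKII did not pass. Camk2n1 had 229, 207 and 213 CPM in sham and 233, 226 and 219 CPM in ONC (adjusted p = 0.652). Camk2n2 had 18.8, 17.3 and 20.6 CPM in sham and 20.2, 20.8 and 21.9 CPM in ONC (adjusted p = 0.552), with only 30.3% of its reads unique and a span that overlaps Ece2.

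The members have long transcripts, and fold changes in these libraries ran with exon length. The median exon length was 5450.5 bases for the members and 2877 bases for all genes tested, and 34 of the 48 members had exons of 4009 bases or more. When all genes were split by exon length into 10 equal bins, 20 members were in the longest bin (6346 bases or more). From the shortest bin to the longest, the median log2 fold change of all genes went from 0.04 to -0.10 and the share called lower from 1.24% to 11.8%. Among the 20 members of the longest bin, 8 fell, with a median log2 fold change of -0.30. Among the 4160 tested genes whose exon length was within the middle range of the members (3701 to 8241 bases), 5.62% were called lower and 1.61% higher.

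**Figure D4:**
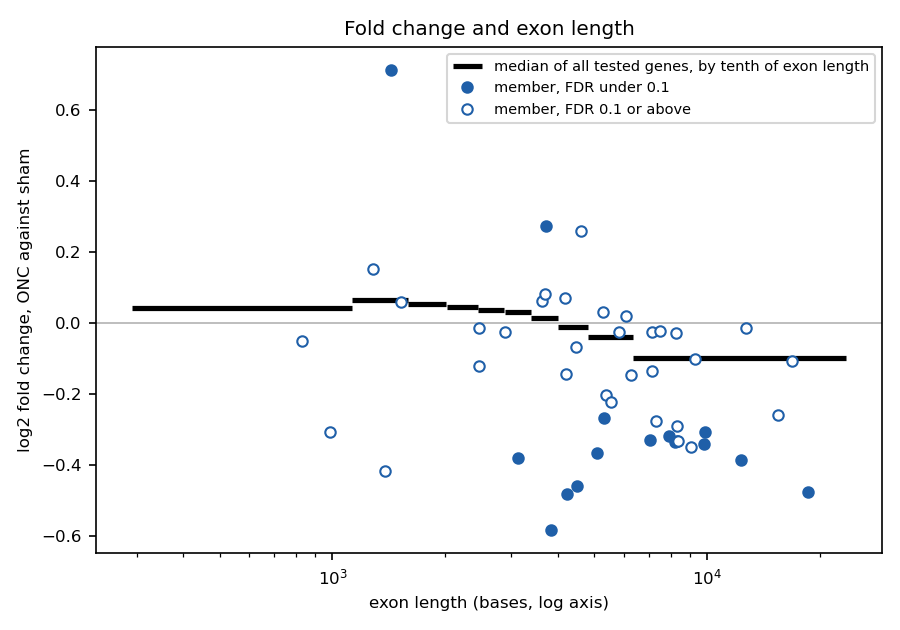
Log2 fold change of exon reads against exon length in bases (log axis) for the 48 members, filled where FDR was under 0.1, with black bars for the median of all tested genes in each of 10 bins of exon length. The bars go from 0.04 in the shortest bin to -0.10 in the longest, and the 14 filled members under 0 lie below the bar of their bin.

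With a smooth correction for exon length in each sample, chosen after the data were seen, 10 members were called, 8 lower and 2 higher, against 5.51% of all genes (3.23% lower and 2.28% higher). The NCX exchangers (3 of 3), Atp2b2, Atp2b3, Atp2a2, Cacnb3 and Cacng5 were called lower, and Camk1 and Camk2g higher. Camk4, Cacnb4, Itpr1, Cacna1a, Cacna1g and Cacna1i were no longer called. The log2 fold change of Slc8a1, which has the longest exons of all members at 18599 bases, went from -0.48 to -0.28, while that of Cacng5 stayed at -0.59. In this fit 31 of 48 fold changes were negative and the median was -0.11. What set the relation to length was not tested.

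The scaling of a sample also bore on the counts. Scaling by all gene reads, introns included, as the deposited RPKM does, moved the median log2 fold change of all genes from 0.01 to 0.13. Under it 27 of 48 members had negative fold changes, against 23.3% of all genes, with a median of -0.02, and 5 were called against 12.7% of all genes (11.0% higher and 1.63% lower). Slc8a1, Slc8a3 and Cacng5 were called lower, as with TMM, and Camk1 and Camk2g higher. On reads across exon-exon junctions alone 6 members were called, Camk1 higher and Atp2a2, Atp2b3, Cacna1a, Cacna1i and Itpr1 lower, against 2.73% of all genes. With the replicate number as a block 16 were called, against 5.33%.

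Intron reads, the reads on a gene outside its exons, largely come from unspliced RNA, and were compared for the 46 members that had at least 10 of them in at least 3 samples (all but Camk2n2 and Atp2a3). They are a separate set of reads from the same libraries. Of the 46, 33 had a negative fold change, against 47.9% of all 11437 genes tested, and the median was -0.19 (0.02 over all genes). 3 members were called, all lower, while 3.32% of all genes were called, 0.621% higher and 2.7% lower. Camk4 had 41.6, 46.8 and 79.6 intron CPM in sham and 24.03, 22.9 and 32.1 in ONC, with a log2 fold change of -1.08 ± 0.26 and an adjusted p of 0.0704, and it was the only member called on both kinds of reads. Itpr2 had 57.9, 67.2 and 61.7 intron CPM in sham and 34.1, 45.3 and 25.9 in ONC (log2 fold change -0.83 ± 0.22, adjusted p = 0.0871). Cacna1c had 61.02, 53.5 and 104 intron CPM in sham and 33.4, 27.1 and 50.6 in ONC (log2 fold change -0.97 ± 0.28, adjusted p = 0.0995). All 3 were without overlap, and sham replicate 3, whose intron reads were the most numerous, was the highest sample for Camk4 and Cacna1c. The span of Cacna1c includes part or all of Dcp1b, whose exons held 1695 reads over the 6 samples. Whether such reads entered the intron count of Cacna1c was not tested. Without any 1 of the samples ONC replicate 2, ONC replicate 3, sham replicate 2 or sham replicate 3, edgeR called 0 members, with 7 to 11 under an unadjusted p of 0.05. It called 1 (Camk1d) without ONC replicate 1 and 5 without sham replicate 1, and with all 6 samples DESeq2 called 6.

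Slc8a1 had 47.9, 60.5 and 142 intron CPM in sham and 31.8, 37.3 and 50.3 in ONC, a log2 fold change of -1.07 ± 0.33 with overlap through sham replicate 1 that did not pass (adjusted p = 0.119). Slc8a3 was lower in every ONC sample at -0.53 ± 0.18 and did not pass (adjusted p = 0.143). The intron fold changes of the rising members were 0.53 ± 0.39 for Camk1 and 0.33 ± 0.15 for Camk2g, with adjusted p-values of 0.497 and 0.27. Cacng5, the member of largest fall on exons, had an intron log2 fold change of -0.01 ± 0.42 on 26 to 66 intron reads per sample.

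**Figure D5:**
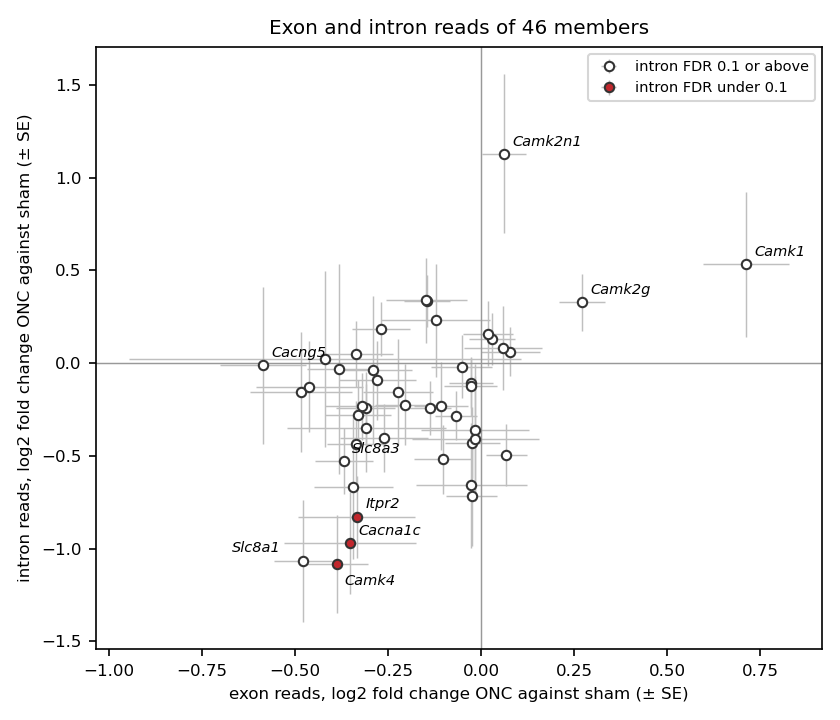
Log2 fold change of intron reads (vertical) against that of exon reads (horizontal), ONC against sham, for the 46 members, with standard errors as bars. The 3 red points (Camk4, Itpr2 and Cacna1c) passed an FDR of 0.1 on intron reads, and Camk1 and Camk2g lay above 0 on both axes.

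Other genes of calcium handling were taken from 10 lists of 95 genes, of which 87 were tested. Among these 12 fell and 2 rose (3.72% of all genes were called lower and 2.38% higher). With the exon length correction 12 were called lower and 1 higher. Camkk2 and Rcan1 were then no longer called, while another gene of the calmodulin list was called lower. Cytosolic buffers and sensors held 6 of the falls, in 16 genes. Calb2, Calb1 and Pvalb encode calcium buffers (log2 fold changes -0.55 ± 0.05, -0.23 ± 0.07 and -1.37 ± 0.15), and Vsnl1, Hpca and Ncs1 encode calcium sensors of neurons (-0.61 ± 0.07, -0.33 ± 0.07 and -0.40 ± 0.09). Cabp4, which tunes the photoreceptor channel built on Cacna1f, rose (0.31 ± 0.06, RPKM 127 ± 9.28 in sham and 171 ± 9.23 in ONC). Of calmodulin and its kinases outside the family list, Calm3 and Camkk2, an activator of Camk1 and Camk4, fell among 9 (-0.24 ± 0.05 and -0.29 ± 0.09). Of calcineurin and its inhibitors, Rcan1 rose and Rcan2 fell among 10 (0.29 ± 0.09 and -0.24 ± 0.07). The remaining falls were Canx, a chaperone of the endoplasmic reticulum (-0.21 ± 0.06), the cation channel Trpc1 (-0.38 ± 0.06) and the protease Capn5 (-0.65 ± 0.14). In store-operated entry (5 genes), mitochondrial calcium transport (8), the potassium-dependent exchangers (5) and the RGK GTPases (3), edgeR called none, with 1, 1, 1 and 0 genes under an unadjusted p of 0.05 (DESeq2 called 0).

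Markers of other cells that a retina sample could hold were read from lists of known genes. Among 7 rod markers Pde6b, Nr2e3 and Sag rose, with a summed RPKM of 19538 to 20347 in sham and 21474 to 22967 in ONC. On the scale of the test the median log2 fold change of these 7 was 0.08, with 3 negative. Among 7 microglial markers C1qa and Itgam rose (summed RPKM 9.02 to 11.3 in sham and 13.9 to 16.4 in ONC). Their median was 0.49, with 1 negative. These sums carry the scaling of RPKM, under which the median log2 fold change of all genes was 0.13. Of the cone, bipolar, amacrine, horizontal, Müller glia, endothelial, muscle, pigment epithelium and lens markers none was called by edgeR, with 3 Müller glia genes and 1 gene each of the cone, bipolar, horizontal and lens lists under an unadjusted p of 0.05 (DESeq2 called 1 Müller glia and 1 lens gene). With the correction for exon length 1 cone gene was called lower, and 1 microglial gene rather than 2 was called higher. Among the RGC markers Nefh, Sncg and Pou4f2 had log2 fold changes of -1.29 ± 0.09, -0.95 ± 0.07 and -1.39 ± 0.19, each larger than that of any falling member. The part of these markers' changes in the changes of the members was not tested.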

How the data were processed

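RNA of 3 ONC and 3 sham samples, each pooled from 6 retinas, had been sequenced in pairs by the authors, mapped with CLC Genomics Workbench and counted. The files deposited by the authors hold unnormalised read counts per gene (on exons, on the whole gene and on exon-exon junctions, an intact pair counting as 1, whether strand was used not being given in the sources used here) and the exon length. The authors also deposited RPKM, in which exon reads are divided by exon length and by all reads on genes, introns included, and recomputed values differed from it by at most 0.0005. A column of group means and a second copy of the RPKM were not used. The sources name mm9, while the positions in the files match GRCm38, and RefSeq windows of that build were used for the sequences.

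Groups came from the sample labels. The 13670 genes whose mean RPKM exceeded 0.3 in either group were tested, among them the 48 members and Itpr3. Counts of exon reads were compared with edgeR 4.0.16 (TMM, glmQLFit and glmQLFTest, R 4.3.3), a model of condition alone, and p-values were adjusted by Benjamini-Hochberg over the whole table. Intron reads, the gene reads less the exon reads, were tested likewise for 11437 genes with at least 10 in at least 3 samples. The standard error is the size of the log2 fold change over the square root of the F statistic. The common coefficient of variation from edgeR, within groups and apart from counting noise, was 9.17% for exon and 22.1% for intron reads. With 3 samples a group an exact permutation test cannot go below p = 0.1. The fits were tested on simulated data with fixed seeds. The promoter motifs and the 5 windows shown were chosen by hand.

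Every member could be named. The 16 called members and, in each family, the member of highest mean RPKM and of largest fold change were given in every sample, and list genes were named where called. The members and the gene lists were chosen with earlier results of these data known, so no count over them is independent support. Alternatives were DESeq2 1.42.0, limma 3.58.1 on log2 RPKM plus 0.1 or 1, other scalings, filters, reads and thresholds, the replicate number as a block, and leaving out each sample. The correction for exon length (lowess span 0.4), the junction reads and the scaling of intron reads by their sum were chosen after seeing the data. Same-numbered ONC and sham samples did not deviate together (r = -0.047, -0.033 and 0.0026), and no source describes them as paired.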

Additional observations from a re-analysis of the deposited data

How the results depend on the processing

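Of the 320 checks of the 16 named members under 20 alternatives, 219 kept direction and call, 101 kept the direction but not the call and 0 reversed. The count of called members on exon reads (16) stayed within 15 to 18 with DESeq2, DESeq2 size factors, the sum of exon reads, unique reads, gene reads, other RPKM filters and the replicate block (16, the same as without it). On gene reads the count of 16 held other genes, since 5 of the 16 were lost (Slc8a2, Atp2b3, Atp2a2, Cacna1g and Cacna1i) and Cacna1c, Cacna1d, Camk1d, Camk2d and Itpr2 were called in their place. Replicate numbers are shared in the labels alone, and the blocked fit gave 2 DEGs on exon reads, as before, and 4 called members on intron reads. The count was 10 with the exon length correction, 9 with that correction and the replicate block, 10 at an FDR under 0.05, 6 on junction reads (Atp2a2, Atp2b3, Cacna1a, Cacna1i, Camk1 and Itpr1), 5 with the scaling of RPKM and 3 with limma at either pseudocount (Camk1, Camk2g and Cacng5). It ranged from 6 to 23 with 1 sample left out. The count past a fold of 1.5 (2) was 1, Camk1, on junction reads, with limma at either pseudocount, without the RPKM filter, with the scaling of RPKM and with the sum of exon reads. It was 4 on gene reads (Camk1 higher, and Cacna1c, Camk1d and Itpr2 lower), and 1 to 4 with 1 sample left out. The count on intron reads (3) was 6 with DESeq2, 9 when intron reads were scaled by the sum of exon reads, 0 when scaled by their own sum (8 under an unadjusted p of 0.05 by edgeR) and 0 at an FDR under 0.05. It ranged from 0 to 5 with 1 sample left out. Apart from the constructions themselves, the cause of these differences was not tested. Members with few reads, such as Cacng8 and Atp2a3, could show large changes alone, and Cacnb4 and Camk2n2 share most of their reads with other loci.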
